A study of Gallus gallus with 26 samples.

Results

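Broad shared H3K27ac domains are long merged stretches of the chick genome. They hold a peak of acetylated histone H3 lysine 27 from every H3K27ac library of 2 skeletal tissues, the forming joint and the neighbouring cartilage. No library need cover them over their whole length. They were selected on the H3K27ac peak lists themselves. The peaks of 6 lists were merged where gaps were under 1000 bp, and a merged region was kept if it spanned at least 10 kb, held a peak of all 6 lists, did not lie on chromosome Z or W and overlapped an H3K4me1 peak of at least 1 of 4 lists. Of 51381 merged regions, 17455 held a peak of all 6 lists and 16569 of these lay outside chromosomes Z and W. The width limit left 2674 regions, and 11 of them without any H3K4me1 peak were dropped, so that 2663 domains were described. The width of the domains, their H3K27ac level relative to other regions and their presence in both tissues were therefore set by the rule, and are given as descriptions without a test. The rule did not set which tissue was higher, but a domain that owed its width to one tissue had to be lower in the other. Adjusted p-values of the H3K27ac difference of single domains are therefore given only where the lists of each tissue reached 10 kb. This does not remove the effect of the rule, because the full width of such a domain can still come mostly from one tissue.

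The study dissected the interzone, the layer of cells that forms at the site of a future joint, and the phalange, the cartilage element beside it, from digit 3 of the hindlimb of White Leghorn chick embryos of stage HH32 (7.5 days). Chromatin immunoprecipitation was sequenced from 3 interzone and 3 phalange samples for H3K27ac and from 2 interzone and 2 phalange samples for H3K4me1, each pooled from 100 specimens. RNA was sequenced by Smart-seq2, a method for low input, from 3 interzone and 3 phalange libraries. The labels give no treatment or genetic change for any group. The pooled dissections hold every cell type left on the tissue piece, so that fewer cells of a type and less signal per cell cannot be told apart in any of these samples.

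H3K27ac is deposited on nucleosomes at active enhancers and active promoters, where it marks regulatory DNA in use in a cell type. H3K4me1 marks enhancers more widely, including primed ones that lack acetylation, and is usually low at the centre of active promoters, where H3K4me3 takes its place. Long runs of H3K27ac are often found near genes that define a cell type, including the transcription factors and signalling genes that pattern the limb.

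The domains ranged from 10002 bp to 274 kb in width, with a median of 15.5 kb and quartiles of 11.97 and 23.5 kb. Most were near the lower limit: 1791 domains (67.3%) spanned 10 to 20 kb, 718 spanned 20 to 50 kb and 154 spanned 50 kb or more, of which 23 reached 100 kb. Together they covered 57.2 Mb, which was 37.1% of the length of all merged regions from 5.18% of their number. The 13596 shared regions under 10 kb that met the rest of the rule, called compact regions here, had a median width of 3.48 kb.

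Few domains were a single broad peak. In 1642 domains (61.7%) no list held a peak of 10 kb or more, so the domain was a chain of shorter peaks, whereas 227 domains (8.52%) held such a peak in all 6 lists. Merging the 3 lists of each tissue separately gave a run of 10 kb or more in both tissues for 1329 domains (49.9%). The interzone lists alone did so for 572 further domains (21.5%) and the phalange lists alone for 521 (19.6%), while 241 domains (9.05%) reached 10 kb only when both tissues were merged. About 1 domain in 2 thus owed its width to one tissue or to the union of both.

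The regions just inside and just outside the limit of 10 kb are given for comparison. The 3 narrowest domains were chr2:96717860-96727861, chr2:67380021-67390023 and chr2:145695738-145705742, with widths of 10002, 10003 and 10005 bp. The first was covered by H3K27ac peaks over 47.2, 68.6 and 57.5% of its length in the 3 interzone lists and over 10.5, 9.71 and 11.9% in the 3 phalange lists, and the other two over 51.6 to 92.2% across all lists. The 3 widest regions just below the limit were chr16:2260791-2270783, chr6:11904283-11914277 and chr28:4158851-4168848, with widths of 9993, 9995 and 9998 bp. They were covered over 59.3 to 89.1% of their length. All 6 regions held H3K4me1 peaks in all 4 lists.

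The edges of the domains were set by H3K27ac, and H3K4me1 changed at the same places. No H3K27ac peak can lie within 1 kb outside an edge. In the first 0.5 kb inside the edge, 24.03 to 36.4% of the positions were covered in the 6 H3K27ac lists, and 4.75 kb inside the edge 62.4 to 71.4% were covered. H3K4me1 did not set the edges, although the rule required a peak of it in each domain. It covered 13.3 to 15.2% of the 0.5 kb just outside the edge and 33.0 to 35.4% of the 0.5 kb just inside. Further inside, at 4.75 kb, it covered 61.9 to 63.7%, and outside the edge it was lowest 0.75 kb away, at 8.23 to 9.63%, before it returned to 27.8 to 29.3% at 4.75 kb outside. The fall of H3K4me1 thus occurred at the H3K27ac edge in all 4 lists. The marks overlap, and the rule kept the 1 kb outside an edge free of H3K27ac, so this profile is a description.

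**Figure D1:**
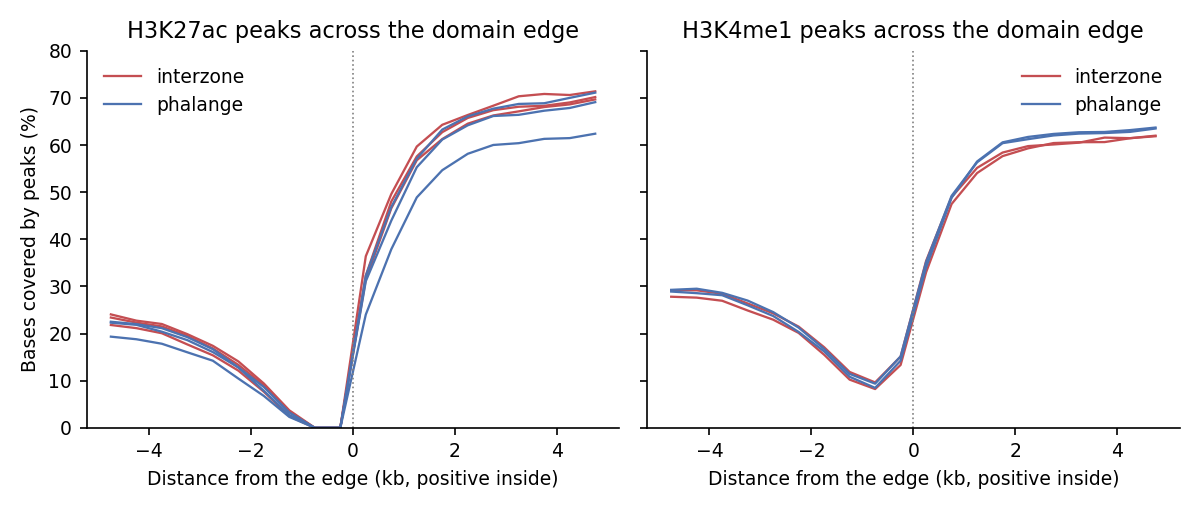
Percent of positions covered by peaks in bins of 500 bp against the distance from the domain edge in kb (negative outside, positive inside), averaged over both edges of the 2663 domains, with 1 line per library for H3K27ac and H3K4me1. H3K27ac is 0 in the 1 kb outside the edge because of the merging, and H3K4me1 rises from 13.3 to 15.2% just outside to 33.0 to 35.4% just inside.

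The domains were denser on the small chromosomes. Chicken chromosomes are usually divided into large macrochromosomes and small, gene-dense microchromosomes. On chromosomes 1 to 5 the 1008 domains (37.9%) lay at 1.65 per Mb, on chromosomes 6 to 10 the 466 domains (17.5%) at 3.14 per Mb, and on the smaller chromosomes from 11 up the 1172 domains (44.01%) at 5.81 per Mb. They took up 3.204, 6.79 and 13.5% of the length of these classes. The compact regions were spread more evenly, at 12.4, 16.2 and 17.7 per Mb, so the domains held 28.1, 38.8 and 53.0% of all merged length in the 3 classes. Median width differed little, at 14.7, 15.6 and 16.2 kb. Chromosome 28 held 13.5 domains per Mb, chromosome 32 held 17.9 per Mb from only 13 domains, and chromosomes 31 and 16 held 1.79 and 2.81 per Mb. Chromosome lengths were taken up to the last peak, and 17 domains lay on unplaced sequence. Gene density was not available for this genome build, and its part in the difference was not tested.

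**Figure D2:**
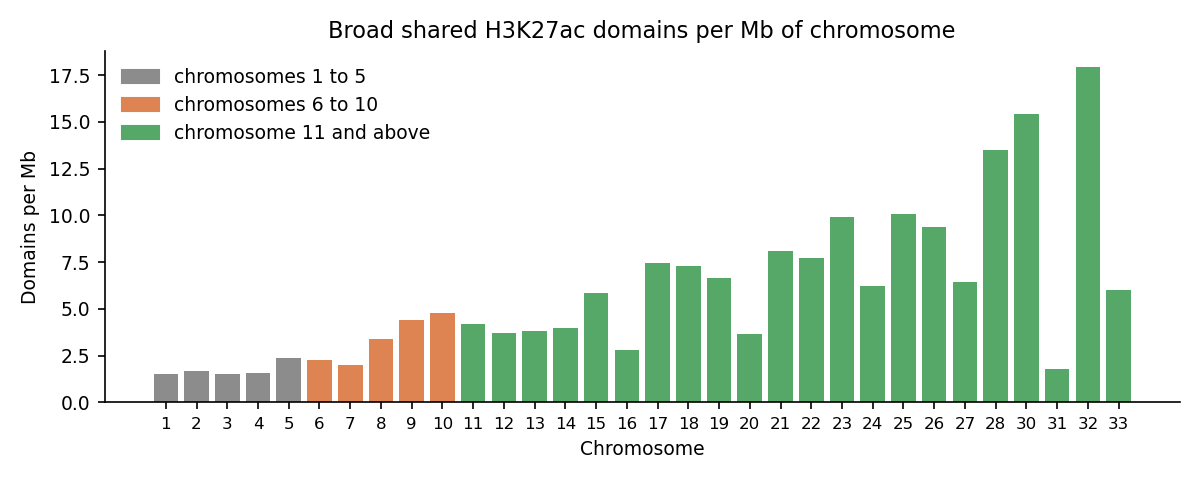
Bars give the number of domains per Mb (vertical axis, from 0) on each numbered chromosome (horizontal axis), coloured by class (chromosomes 1 to 5, 6 to 10, and 11 and above). The 3 classes average 1.65, 3.14 and 5.81 domains per Mb, with chromosome 32 highest at 17.9 and chromosomes 31 and 16 low among the small chromosomes at 1.79 and 2.81.

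H3K4me1 was present in nearly every domain, and in each of the 4 lists it covered a smaller share of the domains than of the compact regions. The rule required only 1 list with an overlapping H3K4me1 peak, and 2655 domains (99.7%) had one in all 4 lists, against 13290 compact regions (97.7%). H3K4me1 peaks covered 59.6 and 59.2% of the summed domain length in the interzone lists and 61.2 and 61.4% in the phalange lists. In compact regions they covered 65.8, 65.4, 67.4 and 67.3%. The difference was -6.13 ± 0.116 percentage points (SD, n = 4 lists), lower in the domains in 4 of 4 lists (exact sign permutation test, two-sided, p = 0.125, the smallest value that 4 lists allow). Against compact regions of 5 to 10 kb alone the difference was -0.92 percentage points, so most of it lay between short and longer regions rather than at the 10 kb limit.

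Within the domains the 2 marks overlapped without coinciding. H3K27ac peaks of all 6 lists covered 42.6% of the domain length, and H3K4me1 peaks of all 4 lists lay on 74.8% of that core, while 10.6% of it had no H3K4me1 peak in any list. In compact regions the core was 31.4% of the length, and 7.85% of it had no H3K4me1. There were 4847 stretches of at least 1 kb without H3K4me1 inside 1993 domains (74.8%), the longest of 25.8 kb. Of these, 352 stretches (7.26%) in 236 domains were covered over at least 50% of their length by an unbroken run of H3K27ac from all 6 lists. The domains themselves varied widely in H3K4me1 coverage, from 25.2% at the 5th percentile to 60.9% at the median and 90.01% at the 95th percentile. In 76 domains (2.85%) it was under 20%, and in 1138 (42.7%) it exceeded that of H3K27ac.

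The libraries were similar in depth of calling, with 52591 to 63642 H3K27ac peaks and 100251 to 111076 H3K4me1 peaks per list. The domains held 25.7 to 30.4% of the H3K27ac peaks of a list and 44.7 to 48.1% of their length. H3K27ac peaks covered 68.2, 69.6 and 67.3% of the domain length in the interzone lists and 61.3, 67.7 and 69.0% in the phalange lists. The ranges overlapped, and the means of 68.4 ± 1.18% (SD, n = 3) and 66.0 ± 4.12% (SD, n = 3) differed by 2.39 percentage points (exact permutation test, two-sided, p = 0.5, where 0.1 is the smallest value possible). Without phalange 1, the list with the least coverage and the fewest domains with a peak of 10 kb or more (343, against 478 to 667 in the other 5), the difference was 0.0351 percentage points. For H3K4me1 the interzone mean of 59.4 ± 0.292% (SD, n = 2) was below the phalange mean of 61.3 ± 0.126% (SD, n = 2), without overlap, and the 4 lists cannot give an exact permutation p under 0.333. Peak height within the domains was above that of compact regions in every list, with a median fold over input of 4.77 to 5.66 against 3.4 to 3.75 for H3K27ac and of 3.80 to 4.18 against 3.52 to 3.83 for H3K4me1.

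The tissues were then compared domain by domain, to see which shared domains were stronger in the interzone or in the phalange. Enrichment was the fold over input summed over the covered bases and divided by the width, and log2 differences were tested with limma across all 16569 shared regions. Of the 1329 domains that reached 10 kb in each tissue's lists, 432 (32.5%) differed at an adjusted p under 0.05, close to the background of 33.9% of all regions tested. The interzone was higher in 154 (11.6%) and the phalange in 278 (20.9%), where the background was 16.9% for the interzone and 16.9% for the phalange. The direction depended on the scaling. Without centring the lists on their medians, 195 of these domains (14.7%) were higher in the interzone, with a background of 20.3%, and 122 (9.18%) in the phalange, with a background of 11.3%, and the median log2 difference of all regions moved from -0.02 to 0.14. Called differences beyond 1 log2 unit were found in 80 of them (6.02%), against 21.7% of all regions, and differences beyond 2 in 4, against 7.84% of all regions. Requiring 10 kb in both tissues itself limits how far they can differ, as does the requirement of a peak in all 6 lists, which leaves out domains that are absent from either tissue. It does not make the width free of tissue, since a run of 10 kb can be a small part of a wide domain.

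The domains that reached 10 kb through one tissue were apart in the direction of that tissue, which the rule made likely, and their counts are given as a description only. Of the 572 that did so through the interzone lists, 291 had an adjusted p under 0.05 with the interzone higher and 4 with the phalange higher. Of the 521 that did so through the phalange lists, 376 were higher in the phalange and 1 in the interzone. In the 241 domains that reached it only when both tissues were merged, these counts were 22 and 27. Added over all 2663 domains they came to 468 (17.6%) for the interzone, with a background of 16.9%, and 685 (25.7%) for the phalange, with a background of 16.9%. These sums hold the domains of one tissue and are likewise a description. Most of the large differences lay in the domains of one tissue, with 59 of the 61 domains beyond 2 log2 units in the interzone and 127 of the 133 in the phalange.

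In the called domains the medians of covered length and of peak height both lay in the direction of the call. Enrichment is the covered share times the mean fold, so the choice on enrichment made this likely, and the medians are a description. In the 154 interzone-higher domains that reached 10 kb in both tissues, the median log2 difference was 0.68 in enrichment, 0.43 in covered length and 0.33 in the mean fold over covered bases. In the 278 phalange-higher domains these medians were -0.62, -0.37 and -0.22. Tested on the mean fold alone, 183 of the 1329 domains (13.8%) differed, against a background of 16.0% of all regions, with 92 higher in the interzone and 91 in the phalange. The covered length of the 3 interzone lists lay above that of all 3 phalange lists in 438 of the 1329 (33.0%), with a background of 29.1% of all regions, and below it in 176 (13.2%), with a background of 13.6%. After each list was divided by its share of all shared regions, 243 domains (18.3%) lay apart in favour of the interzone, with a background of 23.5%, and 293 (22.05%) in favour of the phalange, with a background of 18.1%. The covered length thus favoured the interzone in the lists as deposited and the phalange once they were scaled.

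Among the domains that reached 10 kb in both tissues, calls were less frequent on the smallest chromosomes. On chromosomes 1 to 5, 166 of 419 domains (39.6%) were called, on chromosomes 6 to 10, 89 of 213 (41.8%), and on chromosomes 11 and above, 175 of 683 (25.6%). Those called beyond 1 log2 unit made up 10.3, 6.10 and 3.51%. By width, 163 of 606 domains of 10 to 20 kb (26.9%), 206 of 577 of 20 to 50 kb (35.7%) and 63 of 146 of 50 kb or more (43.2%) were called, and 3.47, 6.93 and 13.0% were called beyond 1 log2 unit. Over all regions tested the shares were 33.9% called and 21.7% called beyond 1 log2 unit. They were not counted by class for the other shared regions, so these patterns cannot be assigned to the domains in particular. The median SE of the log2 difference was 0.163 in domains and 0.271 in compact regions, and its part in the rise with width was not tested. The difference between these shares was not tested either.

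Domains that lay next to each other differed between tissues in a similar way. Of 2622 pairs of neighbouring domains, 1284 (49.0%) were under 50 kb apart, and the median gap was 52.9 kb. The log2 differences of neighbours under 10 kb apart had a Pearson r of 0.63 (n = 602 pairs), those 10 to 50 kb apart 0.56 (n = 682) and those 50 to 200 kb apart 0.25 (n = 594). From 200 to 1000 kb the r was 0.02 (n = 511), and beyond that 0.13 (n = 233). All pairs share the same 6 libraries, so these values describe the lists and carry no test.

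The 3 domains with the largest difference towards the phalange were almost empty in the interzone. Their longest runs of merged peaks were 0.907, 1.05 and 0.624 kb in the interzone lists, so their width came from the phalange, and their H3K27ac values are a description. Here and below, an H3K4me1 p-value of a domain whose width one tissue set is not independent of that choice, because the marks differed together. The 20.03 kb domain chr1:176100752-176120779 was covered over 4.66, 0.889 and 1.11% of its length in the interzone lists and over 53.9, 70.2 and 83.2% in the phalange lists. Its log2 difference in enrichment was -6.26 ± 0.78 (SE), and its H3K4me1 was lower in the interzone, by -1.16 ± 0.26 (limma adjusted p = 0.0411). The 11.1 kb domain chr7:27453363-27464453 differed by -5.56 ± 0.59, from 4.88, 2.92 and 5.72% covered in the interzone to 68.4, 75.6 and 96.0% in the phalange. Its H3K4me1 was not called, at -0.72 ± 0.22 (limma adjusted p = 0.0977). The 10.2 kb domain chr1:136083491-136093739 differed by -5.25 ± 0.69, with H3K4me1 lower by -1.54 ± 0.36 (limma adjusted p = 0.0454). In all 3 domains the interzone and phalange lists were far apart, without overlap.

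In the opposite direction, the 12.8 kb domain chr9:3959469-3972310 was covered over 70.3, 85.2 and 84.5% in the interzone and over 5.41, 5.38 and 1.34% in the phalange. The log2 difference was 4.77 ± 0.75 (SE). H3K4me1 covered most of this domain in both tissues, at 99.2 and 100% in the interzone and 81.2 and 80.8% in the phalange, and was higher in the interzone by 0.63 ± 0.12 (limma adjusted p = 0.0263). The 12.2 kb domain chr9:20603910-20616093, linked to MECOM, a zinc finger transcription factor gene, differed by 4.17 ± 0.86. Its H3K4me1 was not called, at 1.25 ± 0.33 (limma adjusted p = 0.062). The 12.05 kb domain chr1:53058909-53070956 differed by 4.13 ± 0.52 and had a large H3K4me1 difference of 1.80 ± 0.25 (limma adjusted p = 0.0205), from 63.0 and 54.8% covered in the interzone to 18.5 and 15.8% in the phalange. All 3 reached 10 kb through the interzone lists alone. In the tissue where these 6 domains were weak they rested on short or weak peaks, and with only peaks at a q of at most 0.001 none of the 6 had a peak in all lists.

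H3K4me1, whose level the rule did not use, was tested in the same way and gave fewer calls. Of 2655 domains with the mark in all 4 lists, 147 (5.54%) differed (limma, adjusted p under 0.05), against a background of 5.26% of all regions tested. Of these, 47 were higher in the interzone, with a background of 2.09%, and 100 in the phalange, with a background of 3.17%. Of these calls, 39 of the interzone and 91 of the phalange lay in domains that owed their 10 kb to the H3K27ac lists of that tissue alone, and the 1327 tested domains that reached it in both held 5 and 7. The count rested on each phalange list, and its split turned without them: 25 domains were higher in the interzone and 13 in the phalange without phalange 1, and 4 and 1 without phalange 2. Over all regions tested the split turned as well. It was 249 and 144 of 15979 without phalange 1, and 49 and 22 of 15976 without phalange 2. Without interzone 1 and 2, 158 and 153 domains were called, against 1117 of 16000 and 1138 of 15989 regions. Of the 13 domains called in H3K4me1 that are described here by position, 10 were not called without phalange 1 and 12 without phalange 2, and none was called on the mean fold over covered bases. Across the domains the differences in both marks had a Pearson r of 0.83 and a Spearman rho of 0.81 (n = 2655 domains), against an r of 0.64 in compact regions, as a description of the same pair of tissues. The median SE of the H3K27ac difference was 0.163 in domains and 0.271 in compact regions. Its part in the unequal r was not tested. The H3K4me1 difference was smaller, with a slope of 0.31 log2 units per unit of H3K27ac. Domains chosen through the H3K27ac of one tissue were thus likely to differ in H3K4me1 too, and their H3K4me1 calls are not independent support.

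**Figure D3:**
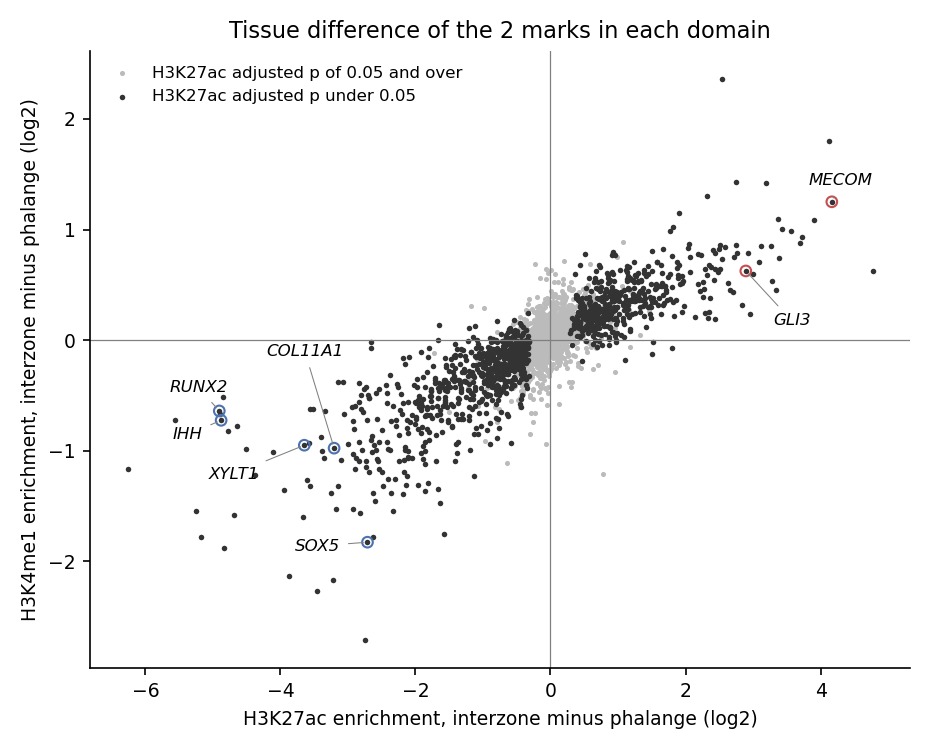
Log2 difference in enrichment, interzone minus phalange, of H3K27ac (horizontal axis) and H3K4me1 (vertical axis), with 1 point for each of the 2655 domains with H3K4me1 in all 4 lists, black where H3K27ac was called and grey where it was not, and circles around the most different domain of 7 linked genes. The points lie along a shallow slope of 0.31 with an r of 0.83.

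Of the 10 widest domains, 9 reached 10 kb in both tissues, and 3 of these were called in H3K27ac and 6 were not. The widest, chr21:1090058-1364012, spanned 274 kb and was linked to PRDM16, a transcription factor gene. It was covered over 83.3, 83.7 and 84.1% in the interzone and 73.4, 74.3 and 74.4% in the phalange, and its centred enrichment differed by 0.10 ± 0.13 (limma adjusted p = 0.587). The 257 kb domain chr15:4826420-5082962, linked to RFLNA, differed by -0.07 ± 0.13, and the 178 kb domain chr4:85052940-85230454, linked to FGFRL1, a receptor-like gene of the FGF family, by -0.28 ± 0.13. Neither passed the test, nor did chr14:4493256-4646360 (153 kb), chr20:4889916-5023421 (134 kb) and chr32:181866-312311 (130 kb), with -0.12, 0.22 and -0.11. The chromosome 32 domain had little H3K4me1, at 35.5 to 40.7%. Of the remaining widest domains without a linked gene, chr8:27386388-27578222 (192 kb) was higher in the interzone by 0.55 ± 0.12 (limma adjusted p = 0.0029). The domain chr2:56566501-56694945 (128 kb) was higher there by 1.12 ± 0.16 (limma adjusted p = 0.000227). Its longest run of merged phalange peaks was 20.7 kb, so much of its width was set by the interzone. On the mean fold over covered bases it was not called (limma adjusted p = 0.175). The domain chr17:5022601-5169668 (147 kb) was higher in the phalange, with -0.79 ± 0.12 (limma adjusted p = 0.000299).

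The exception among the widest domains was chr8:11600730-11750969, a 150 kb domain linked to COL11A1, which encodes a chain of the fibrillar collagen XI of cartilage. It was covered over 7.0, 9.51 and 9.72% in the interzone and 48.8, 87.5 and 95.9% in the phalange. Its longest run of merged peaks was 8.81 kb in the interzone lists, so its width came from the phalange, and its log2 difference of -3.2 ± 0.43 (SE) is a description. The mean fold over the covered bases differed by 0.05. H3K4me1 was sparse, at 5.30 and 5.05% in the interzone and 14.5 and 17.6% in the phalange.

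Genes were linked to domains through the candidate enhancers that the study assigned to genes. The study assigned them to proximal genes with the tool GREAT, after lifting the regions to the human genome. The links themselves were not tested here, so a linked gene need not be the target of its domain. Those enhancers had been chosen on the same H3K27ac and H3K4me1 libraries for being specific to a tissue, conserved and free of promoters, and their genes for a skeletal phenotype. The linked domains are therefore not independent evidence of any direction. The chromosome of each gene was taken from assembly GRCg7b, which is not the build of the peak lists. On this check 24 pairs with different chromosome numbers and 3 pairs with a gene not found were dropped. Among them were HOXC10, KMT2D and VDR, with domains on chromosome 33 and genes on chromosome 34. Whether chromosome numbers differ between the builds was not checked. The remaining 186 pairs linked 126 genes to 180 domains (6.76% of all). A single domain was linked to 93 of the genes and more than 1 domain to 33. Of the 180 domains, 82 reached 10 kb in both tissues, and 22 of these were higher in the interzone and 23 in the phalange. The 34 named genes belonged to 4 lists of skeletal genes or were called in RNA, and held 66 domains. Of these, 29 reached 10 kb in both tissues, with 6 higher in the interzone and 11 in the phalange, where over all such domains the shares were 11.6 and 20.9%. In H3K4me1, 1 of the 66 was higher in the interzone and 8 in the phalange, with backgrounds of 2.09 and 3.17%. Of all 81 domains named by the rule, 38 reached 10 kb in both tissues and 20 of them were called, but 11 of the 20 fell short of the threshold on the mean fold over covered bases. Among these were chr2:56566501-56694945, both SUFU domains and the SOX5 domains called below. Others were chr3:109329702-109449922 of RUNX2, chr18:8553713-8572389 and chr18:8720365-8794502 of SOX9, and those of HOXD13 and TWIST2. For the domains that did not reach 10 kb in both, H3K27ac values are given without a p. Without centring, 2 domains of SOX9 (chr18:8553713-8572389 and chr18:8720365-8794502) and that of TWIST2 were no longer called. With only peaks at a q of at most 0.001, some linked domains no longer had a peak in all lists. Among them were chr3:109293098-109317328 of RUNX2, chr18:8526190-8538054 of SOX9 and the domains of XYLT1, TCF7L2 and RUNX1. Some domains of GLI3 and SOX5 were also among them.

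Hedgehog signalling was represented from ligand to transcription factor. Indian hedgehog, IHH, is the ligand made by maturing chondrocytes. Its linked 43.9 kb domain chr7:22264863-22308726 was covered over 6.85, 5.80 and 4.81% in the interzone and over 84.3, 90.9 and 94.7% in the phalange. The log2 difference was -4.88 ± 0.42 (SE), without overlap of the groups. The longest run of merged peaks was 2.48 kb in the interzone, so the width came from the phalange. H3K4me1 in contrast covered much of the domain in both tissues, at 66.0 and 65.0% in the interzone and 90.7 and 91.2% in the phalange, with a difference of -0.72 ± 0.12 (limma adjusted p = 0.0216). Both domains linked to SUFU, a cytoplasmic inhibitor of the pathway, were higher in the phalange, with -0.84 ± 0.13 for chr6:24130457-24175300 (limma adjusted p = 0.000387) and -0.95 ± 0.17 for chr6:24210374-24254672 (limma adjusted p = 0.000973).

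GLI3, which acts largely as a repressor when the ligand is absent and patterns the digits, was linked to 6 domains with a summed width of 220 kb within chr2:50658319-51045234. All 6 were higher in the interzone, with log2 differences of 0.66 to 2.89. The widest, chr2:50748442-50852000, spanned 103.6 kb and was covered over 76.4, 86.9 and 82.2% in the interzone and 22.1, 27.1 and 26.01% in the phalange. It differed by 2.07 ± 0.29 (SE, limma adjusted p = 0.000187), and its longest run of merged phalange peaks was 10.6 kb. Much of its width was thus set by the interzone, and the test is not free of that choice. The other 5 reached 10 kb through the interzone lists alone. The largest difference was 2.89 ± 0.73 in the 11.8 kb domain chr2:50723015-50734856, where the interzone lists covered 29.8, 44.3 and 28.2% and the phalange 3.56, 6.06 and 1.93%. The smallest was 0.66 ± 0.19 in chr2:51021921-51045234. On the mean fold over covered bases chr2:50723015-50734856 and chr2:50858779-50910075 had the opposite sign, at -0.22 and -0.04. In H3K4me1 the 6 domains were at 0.12 to 0.75, and none was called (limma adjusted p from 0.114 to 0.788). The domains linked to GLI2, the main activator of the family, differed by less, with 0.55 ± 0.14 in the 35.0 kb domain chr7:25775388-25810382, which owed its width to the interzone, and 0.55 ± 0.13 in the 101 kb domain chr7:25861140-25962477 (limma adjusted p = 0.00427).

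BMP signalling drives cartilage growth and is restrained in the joint. The 3 domains linked to the ligand gene BMP4 had positive differences, and none of them reached 10 kb in the phalange lists. In chr5:58620195-58634644 the coverage was 72.3, 68.4 and 79.4% in the interzone and 20.9, 17.1 and 25.3% in the phalange, with a log2 difference of 1.91 ± 0.39 (SE). The other two, chr5:58644994-58660200 and chr5:58836075-58847584, differed by 0.59 ± 0.21 and 1.096 ± 0.31. The domain linked to BMPER, a secreted BMP-binding protein, was at 0.92 ± 0.22 and owed its width to the interzone.

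All 4 domains linked to the receptor gene BMPR1B, within chr4:58507922-58838668, were higher in the phalange, with -1.54 to -2.41, and reached 10 kb through the phalange lists alone. The widest, chr4:58507922-58577820, spanned 69.9 kb and was covered over 18.8, 32.5 and 32.7% in the interzone and 56.7, 76.6 and 92.0% in the phalange. It differed by -1.92 ± 0.33 (SE) in H3K27ac and by -1.02 ± 0.21 (limma adjusted p = 0.032) in H3K4me1. The other BMPR1B domains were not called in H3K4me1 (limma adjusted p from 0.0694 to 0.141). The domain of BMPR2, the type II receptor, did not pass the test, with -0.24 ± 0.12 (limma adjusted p = 0.136). The 118 kb domain chr21:1672589-1790747 linked to SKI, a repressor of TGF-beta signalling, was higher in the interzone by 0.30 ± 0.11 (limma adjusted p = 0.0454). This call was lost when any one of the 6 lists was left out (0.26 to 0.33).

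The SOX genes that control chondrocyte fate had several domains each. SOX9, the regulator required for cartilage, was linked to 6 domains, of which 5 had negative differences. The 3 that reached 10 kb in both tissues were called and higher in the phalange. The most different of the 6, chr18:8526190-8538054, was covered over 10.4, 18.1 and 7.37% in the interzone and 67.1, 72.8 and 97.4% in the phalange. Its log2 difference was -3.61 ± 0.51 (SE), over a width set by the phalange, with H3K4me1 lower in the interzone by -1.27 ± 0.21 (limma adjusted p = 0.0221). Next to it in size of difference was chr18:8590735-8605721, with -2.13 ± 0.25 in H3K27ac, again over a width set by the phalange, and -0.72 ± 0.16 in H3K4me1 (limma adjusted p = 0.0374). Further along the locus, chr18:8639820-8651538 had the opposite sign at 0.63 ± 0.33. Its width came from the interzone, and its coverage of 49.8, 58.3 and 67.3% there lay above the 32.3, 31.9 and 43.2% of the phalange. The 74.1 kb domain chr18:8720365-8794502 was at -0.43 ± 0.15 (limma adjusted p = 0.0362) and chr18:8553713-8572389 at -0.70 ± 0.22 (limma adjusted p = 0.0261). Leaving out 1 list ended both calls. The first was not called without interzone 1, 2 or 3 or phalange 1 or 3 (-0.32 to -0.46), and the second without interzone 1 or 3 or phalange 1 or 3 (-0.58 to -0.68).

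SOX5 and SOX6 act with SOX9 in chondrocytes. All 7 domains linked to SOX5 had negative differences, of -0.50 to -2.71. Of these, 3 reached 10 kb in both tissues and 2 of the 3 were called, chr1:65978179-66043132 at -0.81 ± 0.17 (SE, limma adjusted p = 0.00272) and chr1:65882149-65938077 at -1.05 ± 0.15 (limma adjusted p = 0.000254). The most different of the 7, chr1:66106461-66125079, owed its width to the phalange and was covered over 20.4, 33.5 and 17.6% in the interzone and 80.4, 80.3 and 94.4% in the phalange. It differed by -2.71 ± 0.36 (SE), and its H3K4me1 by -1.83 ± 0.33 (limma adjusted p = 0.0257), from 12.8 and 7.99% covered to 43.5 and 40.8%. Of the 4 domains linked to SOX6, none of the 3 that reached 10 kb in both tissues was called. The fourth, chr5:11549580-11568822, reached it in the phalange alone and was at -1.39 ± 0.43.

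RUNX2, the transcription factor of hypertrophic cartilage and bone, was linked to 2 domains with large differences. The 24.2 kb domain chr3:109293098-109317328 was covered over 6.98, 9.47 and 8.51% in the interzone and 79.3, 89.3 and 95.3% in the phalange. Its log2 difference was -4.91 ± 0.42 (SE), over a width set by the phalange, since its longest run of merged interzone peaks was 1.98 kb. The 120 kb domain chr3:109329702-109449922 was covered over 23.9, 21.4 and 21.1% in the interzone and 74.0, 85.5 and 89.4% in the phalange, a difference of -2.20 ± 0.24 (limma adjusted p = 4.54e-05). Its longest run of merged interzone peaks was 12.7 kb, so much of its width was set by the phalange, and the test is not free of that choice. On the mean fold over covered bases it was not called, at -0.14 (limma adjusted p = 0.384). H3K4me1 was at -0.64 ± 0.17 and -0.66 ± 0.17 in these domains, short of the threshold (limma adjusted p = 0.0698 and 0.0603). The 11.6 kb domain linked to RUNX1 was at -2.78 ± 0.51 and owed its width to the phalange, and that of RUNX3 did not pass the test, at -0.26 ± 0.13 (limma adjusted p = 0.132).

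The domains linked to other limb transcription factors differed in direction. The 55.2 kb domain chr8:5203948-5259151, linked to PRRX1 of the limb mesenchyme and also to GORAB, was covered over 81.9, 80.1 and 83.3% in the interzone and 38.4, 42.0 and 35.7% in the phalange. It differed by 1.30 ± 0.19 (SE, limma adjusted p = 0.000278). Its longest run of merged phalange peaks was 13.7 kb, so much of its width was set by the interzone. Its H3K4me1 was not called, at 0.53 ± 0.15 (limma adjusted p = 0.0824). The domains linked to LMX1B, which specifies dorsal limb identity, were at 1.17 ± 0.21 and 0.93 ± 0.27 over widths set by the interzone. The second of these was called in H3K4me1, at 0.60 ± 0.12 (limma adjusted p = 0.0329). That of PITX1, which specifies the hindlimb, was at 0.83 ± 0.19, also over a width set by the interzone. The domain shared by HOXD10 and HOXD13 reached 10 kb in both tissues and was higher in the interzone by 0.95 ± 0.17 (limma adjusted p = 0.00101). TWIST2 was at -0.55 ± 0.18 (limma adjusted p = 0.0343), a call lost without interzone 1, 2 or 3 or phalange 1 or 3 (-0.48 to -0.61). The 72.7 kb domain linked to PRRX2 was at 0.05 ± 0.11 (limma adjusted p = 0.768), and the 3 domains of FOXC1 and the 1 of TRPS1 did not pass the test either.

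The domains linked to matrix genes were mixed. XYLT1 encodes an enzyme that starts the sugar chains of proteoglycans, and its 23.9 kb domain chr14:8525089-8549030 was covered over 14.8, 8.95 and 7.21% in the interzone and 60.7, 63.3 and 81.0% in the phalange. It differed by -3.65 ± 0.52 (SE) in H3K27ac, over a width set by the phalange, and by -0.95 ± 0.19 (limma adjusted p = 0.0311) in H3K4me1. Both domains linked to CTGF, a secreted matrix-associated factor, were at -1.58 ± 0.23 and -2.49 ± 0.39 in H3K27ac, again over widths set by the phalange, and higher in the phalange in H3K4me1, at -1.75 ± 0.30 and -0.81 ± 0.19 (limma adjusted p = 0.0224 and 0.0476). COL12A1, COL5A1 and COL3A1 encode collagens of fibrous tissue. The COL5A1 domain chr17:7633380-7688808 was higher in the interzone by 0.86 ± 0.15 (limma adjusted p = 0.000717), and a further COL5A1 domain did not pass the test, at 0.09 ± 0.20. The domains of COL12A1 and COL3A1, with widths set by the interzone, were at 1.40 ± 0.30 and 0.64 ± 0.45.

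The domain linked to COL1A2, a chain of collagen I, set extent and height against each other. The 43.7 kb domain chr2:23570567-23614238 was covered over 23.1, 27.2 and 26.2% in the interzone and over 44.7, 56.1 and 78.0% in the phalange. The mean fold of the covered bases was 8.35, 6.75 and 8.81 in the interzone and 4.20, 3.89 and 3.84 in the phalange. Enrichment over the whole width, which the phalange had set, differed by -0.35 ± 0.23 (SE), and the mean fold by 1.00 ± 0.11 on the log2 scale. The coverage and the mean fold were apart between tissues, in opposite directions.

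The 2 named genes of the Wnt pathway had 1 domain each, both with a width set by the phalange. TCF7L2 encodes a transcription factor that carries the Wnt signal, and its 12.8 kb domain chr6:27901939-27914769 was covered over 7.91, 13.6 and 14.5% in the interzone and 44.7, 51.6 and 78.2% in the phalange. It differed by -2.68 ± 0.54 (SE). The domain linked to CTNNB1, which encodes beta-catenin, differed by -1.08 ± 0.23, although its coverage overlapped in part, at 55.4, 44.6 and 44.03% against 57.9, 68.2 and 51.0%. By list, and over domains that reached 10 kb in both tissues, 4 of the 21 domains of the limb and joint transcription factors were higher in the interzone and 7 in the phalange, beside 11.6 and 20.9% of all such domains. These counts were 0 and 4 of 4 for the Wnt and Hedgehog genes, 1 and 0 of 2 for the TGF-beta and BMP family and 1 and 0 of 2 for the matrix genes. GLI2 and GLI3 were counted among the transcription factors. All these domains were linked through enhancers chosen for a tissue difference in the same lists.

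**Figure D4:**
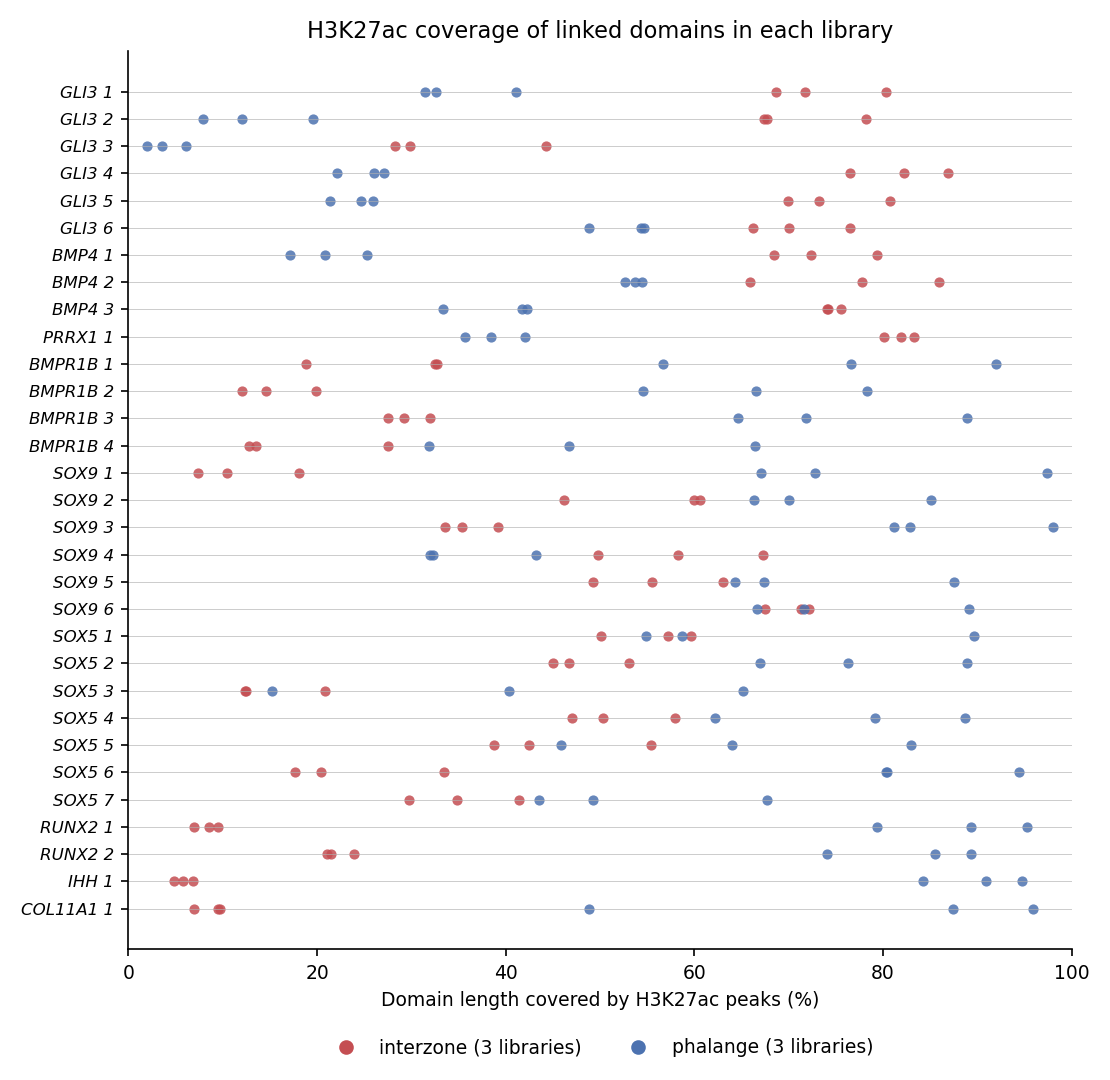
Percent of the domain length covered by H3K27ac peaks (horizontal axis) in each of the 3 interzone (red) and 3 phalange (blue) libraries, with 1 line per domain, numbered along the chromosome for each linked gene. The red points lie above the blue points in all domains of GLI3, BMP4 and PRRX1 and in domain 4 of SOX9, and below them in those of BMPR1B, RUNX2, IHH and COL11A1, while the groups overlap in domain 6 of SOX9 and in domains 1, 3 and 5 of SOX5.

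The RNA of the linked genes was examined to see whether it differed in the direction of the domains. The libraries held 12431285 to 14347148 reads on genes, and 111 of the 126 genes could be tested among 11928. Only RUNX2 was called by limma, against a background of 0.0252% of all genes (3 genes). At an unadjusted p under 0.05 there were 22 linked genes, against 6.46% of all genes. Applied to the reads recovered from the deposited values, DESeq2 called 7 linked genes, against 1.27% of all genes, and edgeR called RUNX2 alone, against 0.00838%. The DESeq2 calls higher in the interzone were DHRS3, LTBP2 and CDON (adjusted p = 3.37e-09, 8.12e-09 and 2.32e-06), COL3A1 and BMPR2. Those higher in the phalange were RUNX2 and TRPV4. Of these genes limma called only RUNX2. The libraries of the tissues did not overlap in 26 linked genes (23.4%), against 10.97% of all genes. In 19 of these genes the interzone was higher, against 5.86% of all genes, and in 7 the phalange, against 5.11%. Over the 111 genes the RNA difference and the median difference of the linked domains had a Pearson r of 0.39 and a Spearman rho of 0.39, as a description, since the genes share the same libraries and were chosen on the same marks.

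RUNX2 had 729, 631 and 653 normalized counts in the interzone and 2980, 4343 and 4234 in the phalange. Its log2 fold change was -2.50 ± 0.22 (SE, limma adjusted p = 0.0225), in the direction of both of its domains. The limma call was lost without interzone 1, interzone 3, phalange 2 or phalange 3, while the log2 fold change stayed between -2.68 and -2.41. With all libraries DESeq2 (adjusted p = 2.27e-22) and edgeR (adjusted p = 0.0429) called RUNX2 as well. GLI3 had 3278, 2586 and 2579 normalized counts in the interzone and 1777, 889 and 1650 in the phalange, without overlap and in the direction of its 6 domains. It did not pass at a log2 fold change of 1.02 ± 0.29 (limma adjusted p = 0.511). TCF7L2 also had separate groups, with 1326, 1244 and 1132 in the interzone and 1588, 2240 and 2049 in the phalange, at -0.65 ± 0.22 (limma adjusted p = 0.595).

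For several other linked genes the RNA values lay in the other direction, overlapped between tissues or could not be read. CTNNB1 had 12249, 14547 and 20282 normalized counts in the interzone and 11371, 6998 and 6891 in the phalange, the opposite of its domain, at 0.91 ± 0.26 (limma adjusted p = 0.519). BMPR2, whose domain was not called, had 43.8, 139 and 111 in the interzone and 8.98, 9.44 and 11.5 in the phalange, a log2 fold change of 3.03 ± 0.83 that limma did not call (adjusted p = 0.499) and DESeq2 did (adjusted p = 0.0221). MECOM, linked to 3 domains and outside the 4 lists, had 2022, 1976 and 2109 in the interzone and 2897, 3192.5 and 2455.5 in the phalange. Its groups were apart in the direction opposite to its domain chr9:20603910-20616093, at -0.48 ± 0.19 (limma adjusted p = 0.704). SOX9, with 3 called domains higher in the phalange, overlapped at 5401, 12879 and 5013 against 4541, 8037 and 10460. BMP4 overlapped at 4047, 802 and 6016 against 2293, 1699 and 2283, and BMPR1B at 1084, 2822 and 429 against 1680, 2898 and 1992. IHH, COL11A1 and CTGF were not matched by symbol in the RNA table, and no RNA value is given for them.

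**Figure D5:**
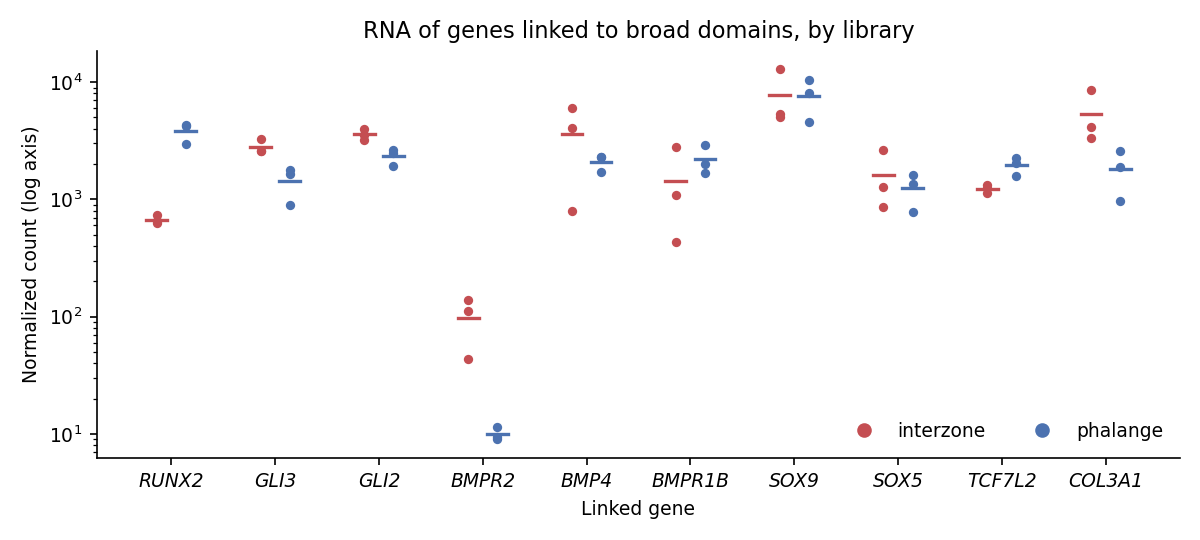
Normalized count (vertical log axis) of 10 linked genes in each of the 3 interzone (red) and 3 phalange (blue) libraries, where points are libraries and bars are means. The groups lie apart for RUNX2, GLI3, GLI2, BMPR2, TCF7L2 and COL3A1 and overlap for BMP4, BMPR1B, SOX9 and SOX5, and of these genes only RUNX2 was called by limma.

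Over the whole of the 4 lists, linked or not, limma made few RNA calls, as it did over all genes. It called 2 of the 47 limb and joint transcription factors tested, RUNX2 and SNAI1, both higher in the phalange, and none of the 37 genes of the TGF-beta and BMP family, of the 25 Wnt and Hedgehog genes or of the 32 matrix genes. At an unadjusted p under 0.05 these lists, in this order, held 13, 12, 6 and 14 genes, where the background was 6.46% of all genes tested. DESeq2 on the recovered reads called 3, 8, 1 and 9 of them, where its background was 1.27%, and edgeR 1, 0, 0 and 0. Their median log2 fold changes were 0.13, 0.60, 0.11 and -0.14, against 0.00 for all genes tested. Markers of the tissues themselves were apart, with summed normalized counts of 19534 to 99109 in the interzone and 5280 to 8220 in the phalange for the 4 interzone markers, and of 4996 to 39794 and 41194 to 67548 for the 4 cartilage markers found of 5. Markers of other cells were present as well, with 1248 to 6895 against 71.3 to 2074 for 3 muscle markers and 1034 to 38897 against 512 to 29952 for 2 red blood cell markers. Markers of endothelium, epidermis, nerve and macrophages overlapped between tissues, at 117 to 493, 124 to 286, 323 to 927 and 548 to 1937 over all libraries. Their part in the RNA and domain differences was not tested.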

How the data were processed

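Peak lists and normalized RNA counts were used as deposited. The authors mapped the ChIP reads to Gallus gallus 6.0 (galGal6) with Bowtie 2, removed duplicates with Picard and called broad peaks per library with MACS2 against input at an FDR under 0.05. Versions are not given in the sources used here. The deposited lists give each peak's mean fold over input (a ratio) and the -log10 p-value and q-value from MACS2. The fold is not scaled between libraries, and read depth per ChIP library is unknown from these files. The RNA reads were mapped with STAR and counted with featureCounts, and the authors deposited gene counts divided by DESeq2 size factors, a normalized signal. Dividing each library by its smallest value gave whole numbers to within 0.01 for 100% of the values, and these recovered reads were used for edgeR and DESeq2.

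Peaks were merged and overlapped with bedtools 2.31.1, pandas 2.3.3 and numpy 2.4.6. Enrichment was the sum of fold times overlapping bases divided by the region width. Its log2 (with 0.1 added for H3K4me1) was centred on each list's median and tested with limma 3.58.1 in R 4.3.3 across all shared regions with tissue as the only term. RNA was tested with limma on log2(normalized count + 1) for genes with a mean of at least 10. A gene was called at an adjusted p under 0.05 and a log2 fold change beyond 0.5, and a log2 fold change on this scale understates the change of low genes. Adjusted p-values are Benjamini-Hochberg values over all features tested. edgeR 4.0.16 (quasi-likelihood test) and DESeq2 1.42.0 served as alternatives. The scripts were tested on simulated data.

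Samples were grouped by the tissue in their labels. The sources do not say how the pools of replicates were divided between embryos, nor how many embryos entered an RNA library, so p-values measure only the spread between these samples. Because a domain's width could come from one tissue, the H3K27ac tests are given for domains that reach 10 kb in the lists of each tissue, a restriction chosen after seeing the data. The rest of the width of such a domain can still come from one tissue, so these tests are not free of the rule. Named regions were the 10 widest domains, the 3 with the largest called difference in each direction, the 3 on either side of 10 kb and all domains linked to a named gene. Named genes were linked genes in 4 lists (limb and joint transcription factors, TGF-beta and BMP family, Wnt and Hedgehog, cartilage and joint matrix) or called in RNA. Links came from the study's candidate enhancer coordinates in galGal6, and gene chromosomes were checked in the RefSeq table of assembly GRCg7b, whose coordinates were not used. No genome of the build was at hand, so no sequence is printed. The members and the lists were chosen with earlier results of these data known. A named gene and its domains are counted in the totals but not reported here.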

Additional observations from a re-analysis of the deposited data

How the results depend on the processing

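The number of domains depended on the rule. There were 1548 domains when only touching peaks were merged, 4110 when gaps under 3000 bp were merged, 6665 at a width of at least 5 kb, 872 at 20 kb and 1767 with only peaks at a q of at most 0.001. Leaving out 1 H3K27ac list gave 2477 to 2606. The count of domains differing in H3K27ac was 563 on the mean fold over covered bases, against 2655 of all 16569 regions. When a list was left out it was 920 to 1092, against 4184 to 5315 of all regions. These counts, and those of H3K4me1 over all domains, hold the domains whose width one tissue set and are a description. The count in H3K4me1 was the least stable, with 0 on the mean fold (134 at an unadjusted p under 0.05), 59 with the stricter q, 236 with regions of at least 2 kb and 5 to 158 when a list was left out. In this order the counts over all regions tested were 0 (1602) of 15945, 270 of 14281, 1246 of 13540 and 71 to 1138. The domains that reach 10 kb in the lists of each tissue, a restriction chosen after seeing the data, were counted as well. Of these, 432 (32.5%) were called in H3K27ac, with a background of 33.9% of all regions. In H3K4me1 12 of 1327 were called, with a background of 5.26%. Covered length did not overlap in 614 of the 1329, with a background of 42.7%. The linked genes called in RNA were 2 with a pseudocount of 10, 7 with DESeq2 and 0 to 3 when a library was left out. Over all genes, 1 was higher in the interzone and 5 in the phalange with that pseudocount, and DESeq2 called 1.27%. With a library left out, at most 6 of all genes were higher in the interzone and at most 5 in the phalange. The domains whose covered length did not overlap between tissues numbered 1481 of 2663 (55.6%), against 42.7% of all shared regions. They hold the domains whose width one tissue set, so this count is a description. When a list was left out they numbered 1623 to 1707. Such a count could not fall below 1481, because fewer lists have to lie apart. When a list was left out, the interzone minus phalange share ranged over 0.0351 to 3.88 percentage points for H3K27ac. For H3K4me1 it ranged over -2.09 to -1.68, and the H3K4me1 share in domains minus compact regions over -6.18 to -6.10. With the stricter q these differences were, in the same order, 3.44, -0.96 and -5.31 percentage points. Against compact regions of 5 to 10 kb alone the last difference was -0.92.

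Replicates with the same number deviated together only weakly, with correlations of 0.14, 0.07 and 0.18 in H3K27ac, 0.26 in H3K4me1 and 0.19, 0.08 and -0.02 in RNA, so the numbers were not treated as pairs. With a replicate block, 1213 domains were called in H3K27ac, against 6338 of all 16569 regions, and 266 in H3K4me1, against 1545 of 15945. In RNA 0 linked genes were called, against 1 of all 11928 genes.

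For the single domains described, 21 alternative H3K27ac values of 12 domains and 1 H3K4me1 value changed sign. On the mean fold over covered bases these were the domains of COL11A1 (0.055), BMPR2 (0.048), COL1A2 (1.00), COL5A1 at chr17:7572293-7607394 (-0.21), GLI3 at chr2:50723015-50734856 (-0.22) and chr2:50858779-50910075 (-0.036), SOX5 at chr1:66058184-66103688 (0.13), TRPS1 (-0.033) and RFLNA (0.0026), and in H3K4me1 chr1:176100752-176120779 (0.064). Without centring they were RFLNA (0.087), chr14:4493256-4646360 (0.038), chr32:181866-312311 (0.049) and FOXC1 at chr2:67257574-67281007 (0.052). With the stricter q they were RFLNA (0.0046), COL1A2 (0.082) and the same FOXC1 domain (0.14), and with quantile normalization RFLNA (0.0091). With a list left out, that COL5A1 domain ranged from -0.076 to 0.23, TRPS1 from -0.085 to 0.14 and that FOXC1 domain from -0.26 to 0.13. Of these only COL11A1 and the GLI3 domains had an adjusted p under 0.05 in H3K27ac, and chr1:176100752-176120779 in H3K4me1. The cause of these changes was not tested. Of the other alternative values of these domains, 854 kept their direction and side of the threshold in H3K27ac, 72 fell short of it and 10 passed it. The H3K4me1 values numbered 91 and 48 in the first 2 of these classes.

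The requirement of a peak in every list, the calling threshold of each list and the unknown depth per list limit what the comparison of domain levels can show, since a weak peak and an absent one differ only by that threshold. The 2 or 3 libraries per tissue limit the precision.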
